A study of Eucalyptus grandis and Eucalyptus globulus with 10 samples.

Results

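Differentiating xylem of Eucalyptus globulus was compared with that of Eucalyptus grandis on the 8 xylem arrays of a series of 10, and the leaf arrays were left out. The 8 arrays were taken by species and tissue label. They held 4 E. globulus trees, namely ramets 1 and 2 of clones A and B, and 4 E. grandis trees, namely ramets 1 and 2 of its own clones A and B. A ramet is a tree propagated from a parent plant, so the ramets of a clone share a genotype, while the clones of a species came from unrelated parent trees and the clone letters are not shared between species. All trees were 4 years old, untreated, and grown in the field at the same site. RNA from tissue scraped off the debarked stem was labelled with Cy3, and each tree had an array of its own.

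Xylem forms from the vascular cambium, and its young cells lay down cellulose, xylan and lignin before most of them die and become wood. E. grandis is a fast-growing plantation tree of warm climates, and E. globulus is grown in temperate regions and valued for its pulp yield. Scraped tissue is a mixture of cell types, so fewer cells of a type and less RNA per cell cannot be told apart. The arrays carried 21413 features, each with an ID that the sources used here do not pair with a gene: 0 of the 21413 IDs were found in the RefSeq gene list of E. grandis. Features are therefore described by level and by difference, at most 2 in each direction are named by ID, and the tissue label could not be set against known marker genes.

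The 8 arrays had median RMA expression values (a summary of probe brightness on a linear scale) between 221.7 and 234.5. The median and the interquartile range of the log2 values overlapped between the species (exact permutation test over the 70 splits of 8 arrays, two-sided p = 0.229 and p = 0.771, or 0.687 and 0.8 adjusted over 3 array measures). Those splits treat ramets of a clone as independent. With clones kept whole only 6 splits exist, the smallest p possible is 0.333, and the exact permutation p was 0.667 and 1. One array stood apart from its clone. E. globulus clone A ramet 1 had an interquartile range of 2.84, against 2.41 to 2.60 on the others, and differed at least 2-fold from ramet 2 of its clone at 8.68% of features. The ramets of the other 3 clones differed at 0.934% to 1.31%. The counts of calls, the brightness classes, the clone pairings and the shares of variance are therefore also given without that array. A Dixon outlier rule (gap to the nearest array over the range within a species) flagged 0 of 14 measures, the interquartile range among them. The sample of each array was taken from its own deposited file. A value table deposited for the whole series names 9 of 10 arrays differently, and with its names limma called 0 features between the species (989 at an unadjusted p under 0.05).

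Single arrays of different species differed at least 2-fold at a median of 11.8% of features (5.19% to 20.7% over 16 pairs). Clones of the same species did so at a median of 8.02% (0.925% to 19.9%, 8 pairs), and ramets of a clone at 1.2% (4 pairs). Without E. globulus clone A ramet 1 these medians were 10.1%, 6.22% and 1.09%. The ranges for species and for clones overlapped. E. globulus clone A ramet 2 was as near to the clone B arrays, at 1.21% and 0.925%, as ramets of a clone were to each other. E. grandis clone B ramet 2 differed from 3 of the 4 E. globulus arrays at 5.19% to 5.75%, and from E. globulus clone A ramet 1 at 20.6%. It differed from the E. grandis clone A arrays at 9.77% and 10.3%. These shares describe the arrays and were not tested.

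**Figure D1:**
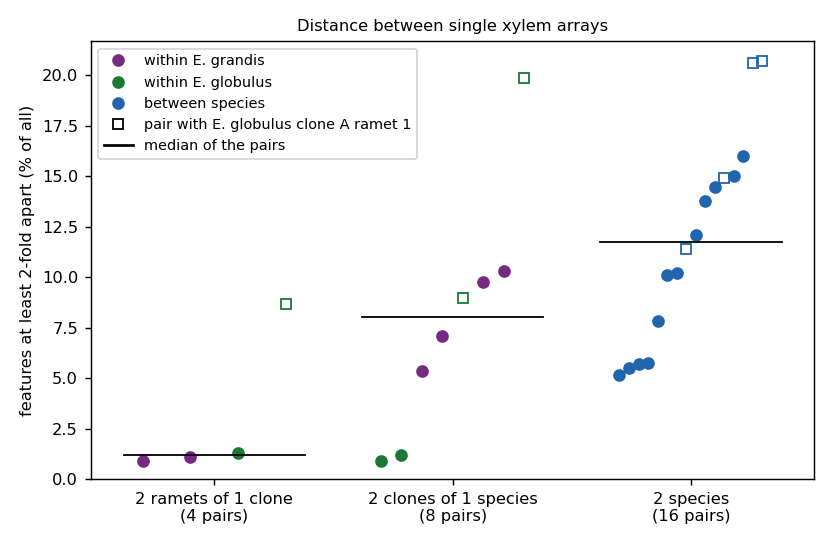
Share of all features at least 2-fold apart (y axis, percent) for each pair of single xylem arrays, sorted into pairs of ramets, pairs of clones within a species and pairs of species (x axis). Open squares are pairs with E. globulus clone A ramet 1 and lines are medians, which lie at 1.2%, 8.02% and 11.8%, while the values for clones and for species overlap.

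The first question was how many transcripts differed between the species beyond the spread between trees and clones. With clone as a random block, limma called 903 of 21413 features (4.22%) at an adjusted p under 0.05. Of these, 492 (2.3% of all) were higher and 411 (1.92%) lower in E. globulus. The median log2 difference was 1.27 among the higher and -1.34 among the lower features, against 0.01 over all features tested. At least 2-fold differences were reached by 386 higher (1.8%) and 328 lower features (1.53%). Larger differences were fewer: 53 higher and 63 lower features differed at least 4-fold, and 189 of the 903 differed less than 2-fold. The count depended on how much of the spread was assigned to clones. The limma estimate of the correlation between ramets was 0.219, while the mean squares pooled over all features gave 0.401. With the correlation set to 0.4, 356 features were called, and with clone means as the unit 176, 72 higher and 104 lower. Without E. globulus clone A ramet 1 the count was 1775, with 836 higher and 939 lower, and without ramet 2 of that clone it was 108. With ramet number as a replicate block 630 were called, 307 higher and 323 lower, of which 590 were among the 903. The small excess of higher over lower features was therefore not stable: of 29 other settings, 17 gave more higher features, 10 more lower and 2 equal numbers. The settings with equal numbers include the value table with its own array names, which gave 0 calls. All settings reuse the same trees, so the tally is a description.

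The arrays of the species did not overlap for 902 of the 903. Over all features they did not overlap for 3326 (15.5%), 1833 of them higher (8.56%) and 1493 lower (6.97%) in E. globulus. For 14908 features (69.6%) the 95% confidence interval of the log2 difference lay between -1 and 1, so a 2-fold species difference was outside it. For the other 6505 (30.4%) the interval reached beyond 2-fold. The median interval extended 0.53 log2 units to each side. The interval lay wholly above 2-fold higher for 103 features and wholly beyond 2-fold lower for 113. These intervals apply to each feature alone, are not adjusted over all features, and rest on the estimated correlation of 0.219. Tested against 2-fold with adjustment over all features, limma called 23.

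**Figure D2:**
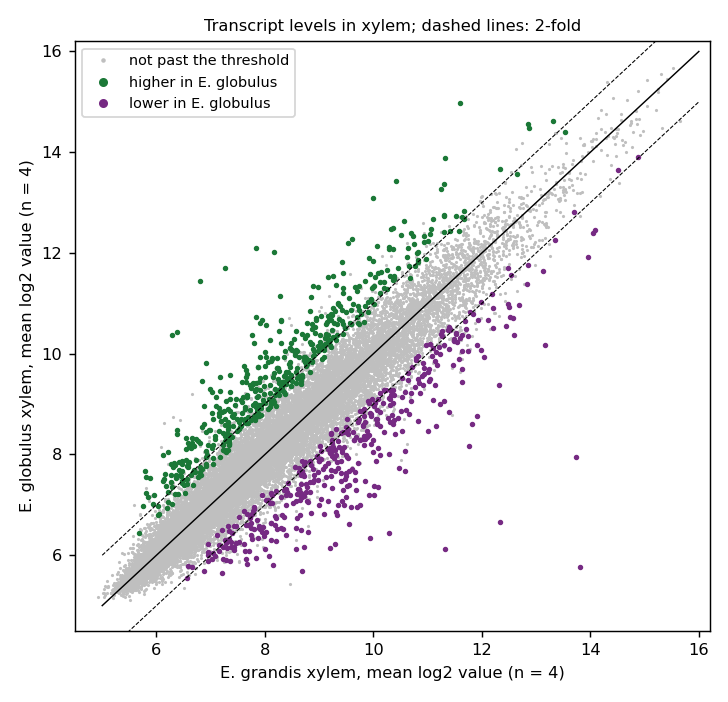
Mean log2 RMA value of each feature in E. globulus xylem (y axis) against E. grandis xylem (x axis), n = 4 arrays each. Green points are the 492 features higher and purple points the 411 lower in E. globulus, and the dashed lines mark 2-fold differences.

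Differences were found over most of the range of levels and seldom among the dimmest features. In 10 equal classes of the mean log2 value, the share called was 0.0467% in the lowest class (5.04 to 6.05) and 0.56% in the next. It was between 5.09% and 7.05% in each of the 5 brightest classes, from 7.84 upward. The median size of the log2 difference grew from 0.13 to 0.36 across the classes, and its median standard error grew from 0.19 to 0.28. Without E. globulus clone A ramet 1 the shares were 0.467% in the lowest and 14.5% in the highest class, against 8.29% over all features. In the highest class 3.73% were higher and 3.17% lower in E. globulus with all arrays, and 5.28% and 9.2% without that array.

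**Figure D3:**
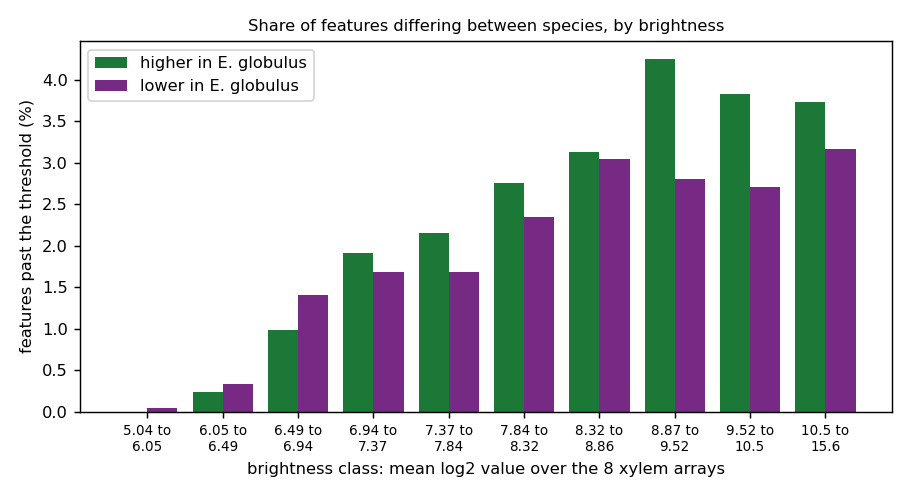
Percent of features past the threshold (y axis) in 10 equal classes of the mean log2 value over the 8 xylem arrays (x axis), higher and lower in E. globulus. The share called rises from 0.0467% in the dimmest class to 6.91% in the brightest, and the green bars exceed the purple ones in the 7 brightest classes with all arrays.

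The lower of the species means was above the overall median log2 value of 7.82 for 46.1% of all features. Of the 492 features higher in E. globulus, 296 (60.2%) had an E. grandis mean above it, and 59 were below that median in both species. Of the 411 lower ones, 220 (53.5%) were above it in E. globulus and 56 were below it in both, so the share was higher among the called features in either direction. No test was made of that difference. A contrast between a bright and a dim level was rare. Only 4 features were above the upper quartile on all 4 E. globulus arrays and below the median on all 4 E. grandis arrays, with log2 differences of 2.91 to 4.64. The opposite pattern was found at 8 features, with differences of 2.14 to 8.03. All 12 were among those called, against 4.22% of all features, but the pattern itself requires arrays that do not overlap and so favours a call. On every xylem array 7914 features lay above the median. Of these, 423 were called (5.34%), 243 higher (3.07%) and 180 lower (2.27%), against 3.56% of all other features. Which species the probe sequences came from is not stated in the labels or files, and a lower transcript level and a poorer match of a transcript to its probes cannot be told apart.

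Features to be named were taken from those 7914, so that neither species is represented by a value in the dimmer part of an array. By rule these were the 2 largest differences in each direction among called features whose arrays do not overlap.

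Among the 243 features higher in E. globulus that met this rule, the largest difference was at LYPTUS00S00011460, which ranked 10 by size of difference among all features. Its log2 values were 12.38 and 12.24 in E. globulus clone A and 11.64 and 11.78 in clone B (ramets 1 and 2). In E. grandis they were 7.83 and 7.86 in clone A and 8.48 and 8.46 in clone B. The E. grandis clone A values lay only just above the medians of those arrays, 7.79 and 7.80. Ramets of each clone lay close together, and clone B was 0.63 log2 units above clone A in E. grandis and 0.61 below it in E. globulus. The species means were 12.01 ± 0.36 and 8.16 ± 0.36 (SD, n = 4 each), which placed the feature at rank 529 by level in E. globulus and 9198 in E. grandis. The log2 difference was 3.85 (95% interval 3.31 to 4.39, limma adjusted p = 2.69e-05), or 14.4-fold. It was 3.85 from the ramet 1 arrays alone and 3.85 from the ramet 2 arrays alone. With clone means as the unit the limma adjusted p was 0.00572.

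LYPTUS00S00009225 was among the brightest features of E. globulus xylem, at rank 11 there and 788 in E. grandis. Its log2 values were 15.50, 15.21, 14.71 and 14.51 in E. globulus (clone A ramets 1 and 2, then clone B). In E. grandis they were 10.96 and 10.46 in clone A and 12.36 and 12.65 in clone B. The E. grandis clones thus stood 1.79 log2 units apart, and the nearest arrays of the species 1.86. The means were 14.98 ± 0.45 and 11.61 ± 1.06 (SD, n = 4 each), and the log2 difference was 3.38 (95% interval 2.36 to 4.39, limma adjusted p = 0.00416). Without E. grandis clone A it was 2.48 (limma adjusted p = 0.0051). That fit held E. grandis as 2 ramets of 1 clone, with an estimated correlation of -0.00722. Its p-value therefore contains no spread between E. grandis clones. With all arrays and clone means as the unit, the limma adjusted p was 0.0431.

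In the other direction, LYPTUS00S00013957 had log2 values of 8.01, 8.77, 8.74 and 8.91 in E. globulus, in the same order of trees. In E. grandis they were 11.94 and 12.03 in clone A and 11.78 and 11.54 in clone B. The E. grandis arrays formed a narrow group, and the lowest E. globulus value was that of clone A ramet 1. The means were 8.61 ± 0.40 and 11.82 ± 0.21 (SD, n = 4 each). The log2 difference was -3.22 (95% interval -3.77 to -2.67, limma adjusted p = 0.000131), and -3.02 without clone A ramet 1. With all arrays and clone means as the unit, the limma adjusted p was 0.00572.

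LYPTUS00S00006040 varied widely among trees of E. globulus, with log2 values of 11.87 and 9.52 in clone A and 10.37 and 8.90 in clone B. It was at 13.83 and 13.75 in E. grandis clone A and at 12.93 and 12.11 in clone B. The ramets of both E. globulus clones were far apart, and the nearest arrays of the species only 0.24. The means were 10.17 ± 1.29 and 13.16 ± 0.81 (SD, n = 4 each), and the log2 difference was -2.99 (95% interval -4.46 to -1.52, limma adjusted p = 0.0331). Its call was lost without E. globulus clone A ramet 2 (limma adjusted p = 0.215), without either E. grandis clone A ramet (0.0733 and 0.0711) and without E. grandis clone B ramet 1 (0.0809). It was also lost with a clone correlation of 0.4 (limma adjusted p = 0.0813) and a pseudocount of 64 (0.0671), and without the whole E. grandis clone A (0.127) or E. globulus clone B (0.0648). The ramet 1 arrays gave -2.26 and the ramet 2 arrays -3.72. With all arrays and clone means as the unit, the limma adjusted p was 0.0431.

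**Figure D4:**
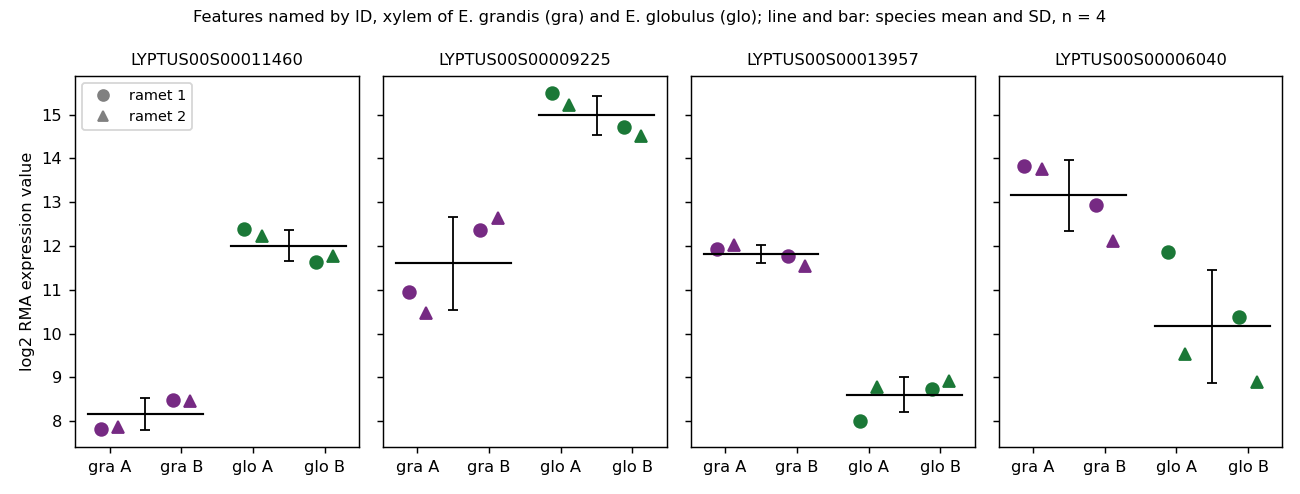
Log2 RMA value (y axis) of the 4 named features in each tree, by clone (x axis; gra, E. grandis; glo, E. globulus), with circles for ramet 1 and triangles for ramet 2. Lines and bars are species means and SD (n = 4); the nearest arrays of the species are 3.15, 1.86, 2.63 and 0.24 log2 units apart from left to right.

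The next comparison asked whether a difference seen between 1 pair of clones was also seen between another pair that shares no tree with it. Clone means of E. globulus A and E. grandis A differed at least 2-fold at 2801 features, and those of the B clones at 983. Of these, E. globulus was higher at 222 and lower at 302 in both pairs, 18.7% of the longer and 53.3% of the shorter list, and 28 went in opposite directions. With the letters crossed, E. globulus A and E. grandis B differed at 1489 features and E. globulus B and E. grandis A at 2505. In both of these pairs E. globulus was higher at 345 features and lower at 243, 39.5% and 23.5% of the lists, and 57 went in opposite directions. Across all features the differences correlated with r = 0.487 in the first pairing and 0.386 with letters crossed, as a description over 21413 features that share arrays. Without E. globulus clone A ramet 1 the first pairing gave 195 higher and 334 lower and the crossed one 276 and 378, with r = 0.534 and 0.59. The crossed pairing thus held more higher than lower features with all arrays and fewer without that array.

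The clones contributed unequally. E. grandis clone A was 2-fold or more from E. globulus clones A and B at 13.1% and 11.7% of features, and E. grandis clone B at 6.95% and 4.59%. The E. grandis clones themselves were that far apart at 6.62%, and the E. globulus clones at 1.62%. Without E. globulus clone A ramet 1 the shares with E. globulus clone A were 13.8% (E. grandis A), 5.84% (E. grandis B) and 0.602% (E. globulus B). For the 492 features called higher in E. globulus, the median log2 difference was 1.53 between the A clones and 0.96 between the B clones. It was 1.29 between E. globulus A and E. grandis B, and 1.24 between E. globulus B and E. grandis A. Without that array the values for E. globulus A were 1.37 and 1.10, against E. grandis A and B. For the 411 called lower it was -1.45 and -1.46 against E. grandis clone A and -1.16 and -1.15 against its clone B, and without that array the values for E. globulus A were -1.61 and -1.31. These values share clones and are given side by side, and whether the E. grandis clones differ in their distance from E. globulus was not tested.

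For 741 of the 903 called features (82.1%) the gap between the species' clone means was wider than the difference between clones within either species, against 14.4% of all features. These shares were 83.1% and 23.2% without E. globulus clone A ramet 1. The call itself favours such features. Even so, 118 of the 903 (13.1%) had clones of a species at least 2-fold apart, against 7.83% of all features. Of the sum of squares over all features and the 8 arrays, 39.7% lay between species, 32.5% between clones of a species and 27.8% between ramets of a clone. The shares were 48.2%, 32.2% and 19.6% in that order without E. globulus clone A ramet 1. The species sum also contains spread between clones and ramets, and the clone sum spread between ramets, so the shares do not rank the separate sources. Per degree of freedom the species term was 2.44 times the clone term, and the clone term 2.34 times the ramet term. The species share was 28.2% in the dimmest class and 44.5% in the class from 9.52 to 10.5. In E. grandis the clone term was 0.276 and the ramet term 0.0676, as mean squares of log2 values. In E. globulus they were 0.173 and 0.124. The ramet term was 0.183 in E. globulus clone A, which holds the array that stood apart, and 0.0661 in clone B, close to the 0.0612 and 0.074 of the E. grandis clones.

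Each array read the same RNA in 2 probe blocks, and the ramet 1 and ramet 2 arrays hold the same 4 clones. Comparisons between them therefore describe how repeatable the readings and the trees of a clone were, and differences between clones recur in them as species differences do. The species differences computed from each of the 2 probe blocks of the arrays correlated with r = 0.929 across features. Of the features at least 2-fold apart in a block, 80.4% (BLOCK1) and 81.4% (BLOCK2) were so in the same direction in the other. The ramet 1 and ramet 2 arrays, which are different trees of the same clones, gave 1359 and 1454 features at least 2-fold apart. E. globulus was higher at 429 and lower at 433 of these in both sets, 63.4% and 59.3% of the lists, with none in opposite directions.

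The number of features called moved by more than 1.5 times when some of the trees were left out. It was 108 without E. globulus clone A ramet 2, 374 without E. grandis clone B ramet 1, and 475 and 487 without ramets 2 and 1 of E. grandis clone A. It was 1579 without E. grandis clone B ramet 2 and 1775 without E. globulus clone A ramet 1. With a whole clone left out it was 516 without E. grandis A, 2918 without E. grandis B and 301 without E. globulus A. Without E. globulus B it was 1017, within 1.5 times. The clone correlation was estimated anew in each of these fits, and was 0.219 with all arrays. It was 0.589 for the count of 108, 0.235 for 374, 0.165 for 475 and 0.147 for 487. For 1579 it was 0.131 and for 1775 it was 0.121. Without a whole clone it was -0.00722 (E. grandis A), 0.00817 (E. grandis B), 0.141 (E. globulus A) and -0.0892 (E. globulus B). These counts therefore do not come from fits at the same clone correlation. The arrays fell into 2 series of array numbers, of which the later held 1 ramet of each E. grandis clone and the earlier all the other 6 arrays. With the series as a block the count was 343, without a call for LYPTUS00S00006040 (limma adjusted p = 0.088), and within the earlier series 474. The later series held only E. grandis. The log2 differences within the earlier series were 3.84 for LYPTUS00S00011460, 3.57 for LYPTUS00S00009225, -3.30 for LYPTUS00S00013957 and -3.17 for LYPTUS00S00006040, the last without a call (limma adjusted p = 0.0617).

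A set of 88 features, 40 higher and 48 lower in E. globulus, was called by limma in each of 26 other settings. Left out were the value table with its own array names, the test against 2-fold and the fit to brighter features alone. The 88 made up 9.75% of the 903. Their log2 differences were 1.51 to 8.03 in size with a median of 2.27, and 62 of them reached 4-fold. The level in the lower species was above the overall median for 37. The set included 18 of the 20 called features that reached 8-fold, and 3 of the 4 named features, all but LYPTUS00S00006040. The set was selected on these values, so its sizes are a description. None of the 189 called features under 2-fold was in it.

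**Figure D5:**
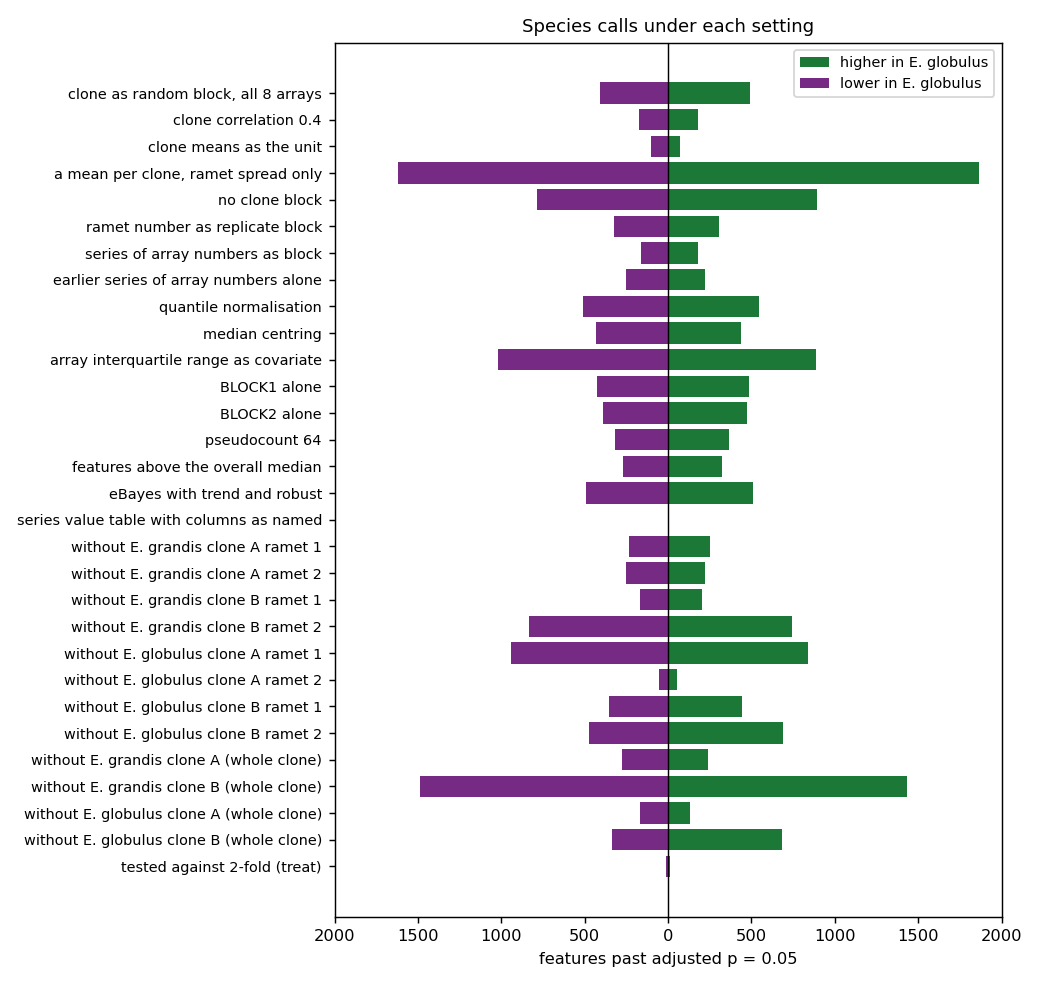
Number of features past an adjusted p of 0.05 in limma (x axis), higher in E. globulus to the right and lower to the left, under each setting (y axis). The counts run from 0 with the series value table as its columns are named to 3482 with only the spread between ramets, around 903 with clone as a random block.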

How the data were processed

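The authors deposited RMA intensities on a linear scale for every feature and each of 2 blocks per array, per the file headers. RMA is named in the submitters' processing notes. Its settings are not stated in the labels or files. The log2 values of the 2 blocks were averaged with no further normalisation or filter. Which features, if any, are negative controls is not given, so none was set aside from the features counted. The precision rests on 4 arrays per species, from 2 clones each.

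The species were compared with limma 3.58.1 in R 4.3.3 (with data.table, version 1.17.8), with clone as a random block (estimated correlation 0.219) and Benjamini-Hochberg adjustment over all 21413 features at a threshold of 0.05. Figures were drawn with matplotlib 3.10.9. On simulated data with known changes the limma procedure estimated the correlation between ramets below the value put in, and false calls took a larger share than the threshold, so the species count may be too high. The simulations changed a small share of the features and gave all features the same correlation. They therefore do not give the size of any excess in these data. Ramets are separate trees, so p-values rest on the spread between trees and clones. Differences between ramets 1 and 2 correlated positively across features in 6 of 6 pairs of clones (r = 0.188 to 0.642), so ramet number was entered as pairing the arrays in an alternative fit only. The fit that called 903 features, with its intervals and p-values, left ramet number out. With it as a replicate block 630 features were called.

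Features were named by a fixed rule: called, with arrays that do not overlap, above the median of all 8 arrays, and the 2 largest differences each way. The samples, rules and alternatives were chosen with earlier results of these data known. Planned gene lists were not run because the IDs were not paired with genes.

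A value table deposited for the series held the same intensities times 10000, uncentred, with column medians of 2212800.5 to 2373949.5. Of its 10 columns, 9 matched the array of another sample within 0.001 units, and its columns followed rising array number in 10 of 10. The per-array assignment was used. With it, ramets of a clone and tissue correlated at 0.906 to 0.981, against 0.659 to 0.978 with the column names of that table.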

Additional observations from a re-analysis of the deposited data

How the results depend on the processing

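The species count of 903 was within 1.5 times in 10 of 29 alternatives, namely 630 with ramet number as a replicate block, 1057 after quantile normalisation, 871 after median centring, 911 and 864 from BLOCK1 and BLOCK2 alone, 689 with a pseudocount of 64, 1003 with eBayes trend and robust, 1017 without E. globulus clone B, and 797 and 1160 without its ramets. It was 356 with a clone correlation of 0.4, 176 with clone means as the unit, 3482 with only the spread between ramets, 1679 with no clone block, 343 with the array series as a block, 474 in the earlier series, 1908 with the array interquartile range as a covariate, 596 among 10796 brighter features, 516, 2918 and 301 without E. grandis clone A, E. grandis clone B and E. globulus clone A, and 23 when tested against 2-fold. Leaving out 1 array gave 108 to 1775. The treatment of clone sets the standard error, and a test against 2-fold is stricter by construction. In the fits without an array or a clone the clone correlation was estimated anew, at -0.0892 to 0.589. Those counts therefore do not share the 0.219 behind the count of 903. The cause of the other shifts, rises without an array or clone included, was not tested.

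With the value table's columns as named, limma called 0 features (989 at an unadjusted p under 0.05). E. globulus xylem then included both leaf arrays. LYPTUS00S00009225, LYPTUS00S00013957 and LYPTUS00S00006040 changed sign there, to -3.64, 1.85 and 1.23, and LYPTUS00S00011460 was at 0.44 without a call. In the other 27 alternatives for the named features each kept its sign, and calls were lost only by LYPTUS00S00006040, in 10 (limma adjusted p up to 0.215). The naming rule required arrays that do not overlap between the species. A kept sign with an array or a clone left out therefore follows from the rule and is no separate evidence. The counts of features 2-fold apart in both clone pairings and the shares of variance stayed within 1.5 times in every alternative run. No feature was filtered for being near background, which was not measured here.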
